A study of Arabidopsis thaliana with 12 samples.

Results

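The genes described here are the 191 genes whose KEGG annotation in the authors' expression table holds the pathway RNA degradation and neither Spliceosome nor Ribosome, out of 25566 genes in the table. The rule uses the annotation and no measured value. 200 genes held the term, and the 9 left out were genes of the LSM family annotated to the spliceosome. 59 of the 191 genes also had m6A peaks, 60 peaks in all, out of 6437 peaks in the authors' peak table. The study set an Arabidopsis thaliana mutant called mettl16 against its wild type, Col-0, at 3 weeks of age. Aerial parts of plants grown in long days with 16 h of light were sampled. The labels give no locus, allele or line for the mutant. Each genotype had 3 RNA-seq libraries of polyadenylated RNA, which also served as input, and 3 immunoprecipitates made with an antibody against m6A, N6-methyladenosine, a methyl mark on adenosine in mRNA. The stated aim of the series was the part of m6A in the transition to flowering.

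Cytoplasmic mRNA decay usually starts with shortening of the poly(A) tail by the CCR4-NOT deadenylase complex or by PARN, while poly(A)-binding proteins coat the tail. The cap is then removed by DCP2 with its cofactors and the body is degraded from the 5′ end by an XRN exonuclease, or the RNA is degraded from the 3′ end by the exosome. The exosome is a ring of RNase PH-like subunits topped by a cap of RNA-binding subunits, to which RRP44 and RRP6 nucleases and RNA helicases attach. Chloroplasts and mitochondria degrade RNA with polynucleotide phosphorylase (PNPase), an enzyme of bacterial origin.

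Expression is given in FPKM, fragments scaled to transcript length and to the fragments mapped in the library, as the authors deposited it. A gene was tested when its mean over the 6 RNA-seq libraries was at least 0.5 FPKM. The test was limma on log2(FPKM + 1), and a gene is called higher or lower when its Benjamini-Hochberg adjusted p over all 19505 tested genes was under 0.05. The log2 changes below are on that scale, mettl16 minus Col-0, and understate changes of genes with low values. The sequencing depth behind FPKM is unknown. Pearson's r between libraries was 0.994 to 0.996 within a genotype and 0.957 to 0.959 across genotypes. FIO1, the Arabidopsis homologue of METTL16 and from general knowledge the gene the mutant is named for, had 0.292, 0.148 and 0.197 FPKM in mettl16 libraries, against 1.98, 2.12 and 2.31 FPKM in Col-0 libraries. The 3 Col-0 values of FIO1 lay above all mettl16 values. Markers of leaf were abundant in every library, with 7 leaf markers summing to between 42276 and 45123 FPKM in mettl16 and between 50569 and 52105 FPKM in Col-0. Of the 7, RBCS1A, the most abundant, was called higher at 0.09. The markers RBCS2B, LHCB2.1, LHCA1 and LHCB1.1 were called lower, with log2 changes of -1.29, -0.81, -0.62 and -0.61. The 6 floral meristem and organ markers found in the table summed to between 61.5 and 63.0 FPKM in mettl16 and between 1.74 and 2.20 FPKM in Col-0, none was listed at 0 throughout a genotype, and all 6 were called higher. The 4 anther and pollen markers found summed to between 25.8 and 27.1 FPKM in mettl16 and between 20.8 and 22.7 FPKM in Col-0. Most of that sum was TPD1, which was not called, at 21.97 FPKM on average in mettl16 and 21.69 FPKM in Col-0. 2 of the 4 markers, ATA7 and AMS, were called higher. ATA7 averaged 2.66 FPKM in mettl16, and AMS averaged 1.78 FPKM in mettl16 and 0.108 FPKM in Col-0. ATA7 and MS1, the latter under the filter, were listed at 0 throughout Col-0. Of 7 root markers found, the sums were 104 to 109 FPKM in mettl16 and 98.9 to 100.2 FPKM in Col-0, with 2 called higher, 1 lower, and COBL9, PHT1;1 and NRT2.1 under the filter. The 2 seed markers found were at or below 0.191 FPKM in every library. More cells of a type and more RNA per cell cannot be told apart in such bulk samples, and the part of floral tissue in the differences below was not tested.

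The annotation reaches beyond RNA decay. By their annotated roles, 77 of the 191 genes fell into 9 classes of the decay machinery itself: exosome, exosome helicases and Ski complex, non-canonical nucleotidyltransferases, CCR4-NOT deadenylases, other CCR4-NOT subunits, PARN, poly(A)-binding proteins, decapping, and 5′-3′ exoribonucleases. Another 41 genes, 21.5%, were NAC transcription factors. In the deposited table these NAC genes carried the KEGG orthology number of the polyadenylate-binding protein, as did 63 genes in all, and nothing in their descriptions ties them to RNA decay. The remaining 73 genes included chaperonins, organellar HSP70, enolases, phosphofructokinases, DEAH-box helicases and CRM-domain proteins. Results are therefore given by role.

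Across the whole set, genes were higher in mettl16 more often than lower. Of the 173 tested genes, 97 were called higher and 21 lower, or 56.1% and 12.1%. Over all 19505 tested genes, 41.1% were called higher and 23.4% lower, and 64.5% were called in either direction. The median log2 change was 0.22 for the tested RNA degradation genes and 0.08 for all tested genes. All 3 mettl16 values lay above all 3 Col-0 values in 107 of the 173 genes and below them in 23, against 43.9% and 25.9% of all tested genes. Counting both directions, the groups lay apart in 130 of the 173 genes and in 69.8% of all tested genes. Of the 173 genes, 12 were called higher by at least 1 on the log2 scale, beside 3.02% of all tested genes. Of the called genes, 82.2% were higher with FPKM as deposited and 75.7% when each library was centred on its median, beside 63.7% and 52.5% of all called genes. Quantile normalization gave 78 higher and 30 lower, beside 31.2% and 32.1% of all tested genes. The 191 genes made up 0.692 to 0.711% of all FPKM in mettl16 libraries and 0.508 to 0.517% in Col-0 libraries. In sum they had 4887 to 4972 FPKM in mettl16 and 3648 to 3698 FPKM in Col-0. The 12 HSP60 and organellar HSP70 genes among them summed to 1610 to 1679 FPKM in mettl16 and 904 to 924 FPKM in Col-0. For the 77 genes of the core decay classes the sums were 1267 to 1285 FPKM and 1089 to 1102 FPKM. 39 of the 72 tested genes of the core decay classes were called higher and 4 lower, against 15 and 7 of 32 tested NAC genes and 43 and 10 of 69 tested genes of the remaining classes. A total of 18 genes fell under the filter, 9 of them NAC genes.

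**Figure D1:**
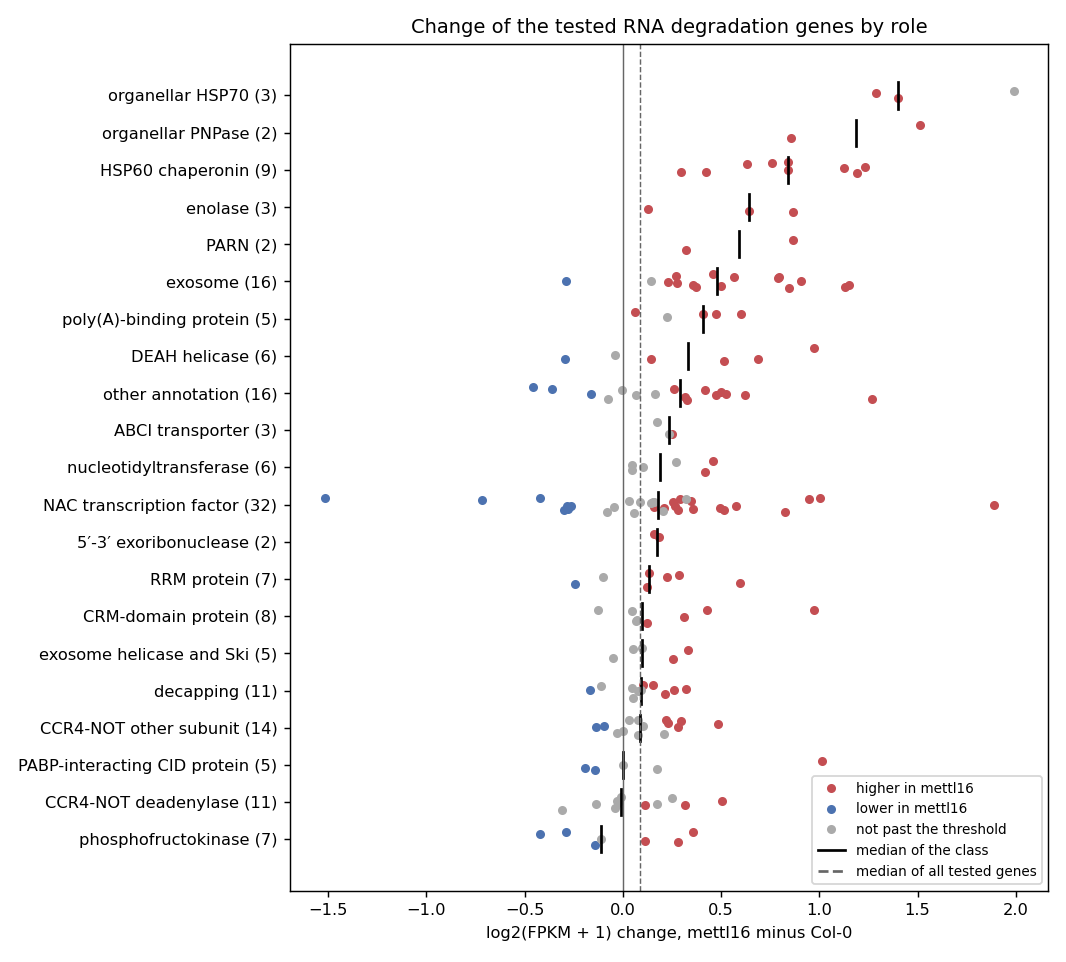
Change of each tested RNA degradation gene on the log2(FPKM + 1) scale, mettl16 minus Col-0, grouped by role with the number of tested genes in parentheses. Points are genes, black bars are class medians and the dashed line is the median of all 19505 tested genes, 0.08; organellar HSP70, PNPase, HSP60, enolase, PARN and the exosome have the highest medians and phosphofructokinase the lowest.

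Genes of the exosome, the 3′-5′ exonuclease complex, were higher in mettl16 almost throughout. Of 16 tested genes 14 were called higher, or 87.5%, beside 41.1% of all tested genes. RRP6L1 was called lower and RRP45A was not called, and the median log2 change of the 16 was 0.48. Centring on the median and quantile normalization gave 14 and 1 as well. The 11 genes of the ring and cap, grouped after their values had been seen, held 10 of the higher calls and a median of 0.79. Their summed level was 104, 103 and 105 FPKM in the mettl16 libraries, against 57.9, 63.2 and 62.1 FPKM in the Col-0 libraries. The other 5 exosome genes summed to 67.6, 72.7 and 69.7 FPKM in mettl16 and to 58.3, 57.2 and 59.3 FPKM in Col-0.

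CSL4 (AT5G38890), a cap subunit that binds RNA at the entrance of the ring, had 10.8, 10.5 and 11.5 FPKM in mettl16 libraries, against 4.02, 4.13 and 4.995 FPKM in Col-0 libraries (log2 change 1.15, SE 0.0735, limma adjusted p = 6.09e-07). RRP42 (AT3G07750), a ring subunit, had 11.5, 12.1 and 12.3 FPKM in mettl16 libraries, against 5.26, 4.43 and 5.08 FPKM in Col-0 libraries (log2 change 1.13, SE 0.0627, limma adjusted p = 2.19e-07). For both genes the lowest mettl16 library was more than 2 times the highest Col-0 library. The cap subunit RRP4 had 14.1, 14.4 and 13.9 FPKM in mettl16 libraries, against 7.69, 7.79 and 7.82 FPKM in Col-0 libraries (log2 change 0.79, SE 0.0414, limma adjusted p = 1.55e-07). RRP41L, a close relative of the ring subunit RRP41, had 8.03, 6.92 and 7.91 FPKM in mettl16 libraries, against 2.93, 3.91 and 4.01 FPKM in Col-0 libraries (log2 change 0.91, SE 0.0978, limma adjusted p = 2.99e-05). Ring subunits RRP43 and RRP46 changed by 0.85 and 0.79 (limma adjusted p = 4.92e-06 and 1.79e-06). RRP41, which carries phosphorolytic activity in plants, had 8.06, 8.27 and 8.79 FPKM in mettl16 libraries, against 4.99, 5.89 and 5.17 FPKM in Col-0 libraries (log2 change 0.56, SE 0.0651, limma adjusted p = 4.09e-05). The groups did not overlap in any of these 7 genes. Of the 16 exosome genes, mettl16 values lay wholly above Col-0 values in 14 and below in 1, against 43.9% and 25.9% of all tested genes.

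Both genes for the cap subunit RRP40 were called higher. AT2G25355 changed by 0.50 and AT4G32175 by 0.37 (limma adjusted p = 1.43e-04 and 8.76e-04). The 2 genes for RRP45 were the lowest of the ring. CER7 (AT3G60500), the RRP45 copy needed for wax synthesis, had 12.8, 12.4 and 12.1 FPKM in mettl16 libraries, against 8.61, 10.5 and 9.49 FPKM in Col-0 libraries (log2 change 0.36, SE 0.0639, limma adjusted p = 7.93e-04). RRP45A, its paralogue, had 7.34, 6.85 and 8.05 FPKM in mettl16 libraries, against 6.54, 6.96 and 6.36 FPKM in Col-0 libraries, with overlapping groups (log2 change 0.14, SE 0.0641, limma adjusted p = 0.0782). RRP45A passed the threshold when FPKM was rescaled to TPM, the same sum in each library (0.17, limma adjusted p = 0.0434) and without mettl16 replicate 2 (0.19, adjusted p = 0.0346). Whether the difference between the 2 copies exceeds its error was not tested.

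Of the 5 genes for nucleases and cofactors that attach to the ring, 4 were called higher and 1 lower. RRP44A, the catalytic hydrolytic subunit, had 12.1, 11.9 and 11.98 FPKM in mettl16 libraries, against 9.86, 9.91 and 10.5 FPKM in Col-0 libraries (log2 change 0.23, SE 0.0431, limma adjusted p = 0.00113). RRP6L2, a nucleolar RRP6, was also higher (log2 change 0.28, SE 0.0469, limma adjusted p = 5.87e-04). RRP6L1, the RRP6 copy known from RNA-directed DNA methylation, went the other way and fell, with 7.44, 7.595 and 7.51 FPKM in mettl16 libraries, against 8.93, 9.44 and 9.89 FPKM in Col-0 libraries (log2 change -0.29, SE 0.0501, limma adjusted p = 6.40e-04). The C1D-like gene AT5G25080, annotated to an RRP6 cofactor, had the highest level of the class, 23.5 ± 1.17 FPKM in mettl16 and 16.8 ± 0.703 FPKM in Col-0 (SD, n = 3 each), and rose by 0.46 (limma adjusted p = 1.84e-05). A gene annotated to the cofactor MPP6 (AT5G59460), described in the file as a scarecrow-like factor, changed by 0.27 (limma adjusted p = 0.00829). RRP44A, the C1D-like gene, the MPP6-annotated gene and the RRP40 gene AT4G32175 each overlap a neighbouring gene, and the labels do not state whether counting used strand.

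**Figure D2:**
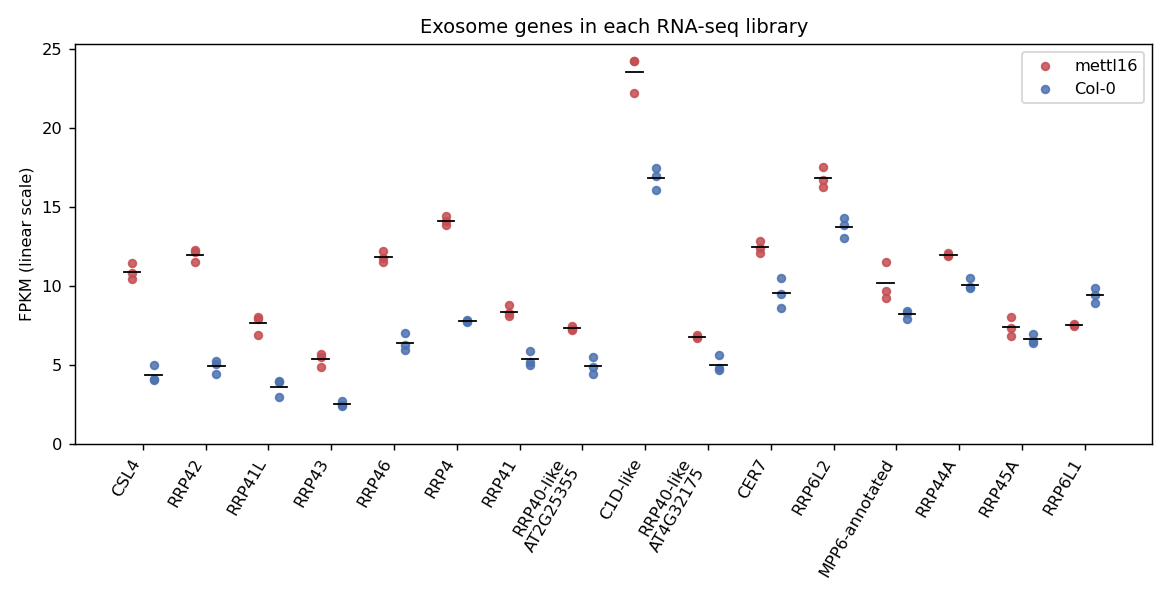
FPKM of the 16 exosome genes in each RNA-seq library on a linear axis, with mettl16 to the left of Col-0, ordered by log2 change. Points are libraries and black bars are means of 3; the mettl16 points lie above the Col-0 points in 14 genes, overlap in RRP45A and lie below in RRP6L1.

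Of the 5 genes for helicases and Ski proteins that feed the exosome, 2 were called higher, or 40%, near the 41.1% of all tested genes. MTR4, the nucleolar helicase, had 13.4, 13.03 and 13.8 FPKM in mettl16 libraries, against 11.1, 10.8 and 11.3 FPKM in Col-0 libraries (log2 change 0.26, SE 0.0421, limma adjusted p = 4.50e-04). HEN2, the nucleoplasmic MTR4 relative, had 10.7, 10.4 and 10.3 FPKM in mettl16 libraries, against 8.18, 7.82 and 8.43 FPKM in Col-0 libraries (log2 change 0.33, SE 0.0468, limma adjusted p = 1.75e-04). In both genes the groups were apart, as in 69.8% of all tested genes. The cytoplasmic Ski genes were not called: the log2 change was 0.05 (interval -0.08 to 0.19) for SKI2, 0.10 (interval -0.02 to 0.22) for SKI3 and -0.05 (interval -0.16 to 0.06) for the WD40 subunit VIP3, where the intervals are 95%. VIP3 was called lower after quantile normalization (-0.12, limma adjusted p = 0.0453).

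Genes of the CCR4-NOT complex, which removes poly(A) tails, had a median change near that of all genes. Of 25 tested subunit genes 8 were called higher and 2 lower, 40% in either direction beside 64.5% of all tested genes, with a median log2 change of 0.08, the same as for all tested genes. After median centring the counts were 7 and 5. NOT1, the scaffold, had 15.9, 16.4 and 16.2 FPKM in mettl16 libraries, against 15.7, 16.2 and 15.5 FPKM in Col-0 libraries, with overlapping groups and a change of 0.03 (interval -0.05 to 0.12). NOT3, the most abundant of the non-catalytic subunits, had 46.2, 46.7 and 44.7 FPKM in mettl16 libraries, against 50.05, 48.6 and 48.5 FPKM in Col-0 libraries and fell by 0.10 (limma adjusted p = 0.0213), a call that was lost without mettl16 replicate 3, without Col-0 replicate 1 and after rescaling to TPM.

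Among the 11 tested deadenylases 3 were called higher, or 27.3%, and none lower, against 41.1% higher and 23.4% lower of all tested genes. Each of the 2 scalings, median centring and quantile normalization, gave 2 higher and 3 lower. The nuclease CCR4A had 27.2, 27.7 and 26.5 FPKM in mettl16 libraries, against 24.8, 26.2 and 23.9 FPKM in Col-0 libraries (log2 change 0.11, SE 0.0408, limma adjusted p = 0.0331), and this call was lost after both scalings and in 4 of the 6 fits that left out 1 library. Its paralogue CCR4B, with 11.2 ± 0.255 FPKM in mettl16 and 11.4 ± 0.474 FPKM in Col-0 (SD, n = 3 each), had a log2 change of -0.02 (interval -0.13 to 0.08) and was not called. The stress-induced CAF1 nucleases were not called: the log2 change was -0.01 (interval -0.13 to 0.11) for CAF1A and -0.14 (interval -0.27 to 0.00) for CAF1B. CAF1B was called lower after median centring (-0.21, limma adjusted p = 0.0135) and quantile normalization (-0.22, adjusted p = 0.0108). The CAF1-family gene AT5G10960 had the highest level of the class at 61.4 ± 0.5903 FPKM in mettl16 and 63.1 ± 1.84 FPKM in Col-0 with a log2 change of -0.04 (interval -0.11 to 0.03) and no call, though it was called lower after median centring (-0.11, limma adjusted p = 0.00996) and quantile normalization (-0.14, adjusted p = 0.00334). A further 2 CAF1-family genes were called higher, AT1G80780 by 0.50 and AT2G32070 by 0.31 (limma adjusted p = 8.42e-07 and 8.56e-05). The mettl16 values lay wholly above the Col-0 values in 4 of the 11 deadenylases and wholly below in 2, against 43.9% and 25.9% of all tested genes. CAF1 genes are similar in sequence, and the labels do not state how fragments were shared among them. HESPERIN, a rhythmic CCR4-like deadenylase, had 6.83, 9.47 and 8.35 FPKM in mettl16 libraries, against 9.59, 12.1 and 9.51 FPKM in Col-0 libraries, and its log2 change of -0.31 did not pass the test (limma adjusted p = 0.0671). HESPERIN was called lower after median centring (-0.38, adjusted p = 0.0323) and quantile normalization (-0.39, adjusted p = 0.0306), with the replicate block and without mettl16 replicate 2.

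Both tested genes of the PARN class, deadenylases outside CCR4-NOT, were higher. AHG2 (AT1G55870), the Arabidopsis PARN that acts on mitochondrial mRNA, had 4.601, 4.01 and 4.63 FPKM in mettl16 libraries, against 2.898, 3.52 and 3.61 FPKM in Col-0 libraries (log2 change 0.32, SE 0.0832, limma adjusted p = 0.00711). AT3G25430, a PARN-like ribonuclease, had 5.89, 6.35 and 6.28 FPKM in mettl16 libraries, against 3.09, 2.96 and 2.78 FPKM in Col-0 libraries (log2 change 0.86, SE 0.0615, limma adjusted p = 1.28e-06). AHG2 lost its call after quantile normalization (0.20, limma adjusted p = 0.0602).

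Poly(A)-binding protein genes were called higher in 4 of 5 tested cases, beside 41.1% of all tested genes. Median centring and quantile normalization each gave 3 of 5, beside 33.4% and 31.2% of all tested genes. PAB2, the most abundant, had 159, 164 and 161 FPKM in mettl16 libraries, against 155, 155 and 154 FPKM in Col-0 libraries. Its change of 0.06 (limma adjusted p = 0.0494) was smaller than the shift of 0.08 in the median of all genes, changed sign to -0.01 after median centring and to -0.05 after quantile normalization, and lost its call in each of the 6 fits that left out 1 library. PAB4 had 93.7, 93.3 and 93.4 FPKM in mettl16 libraries, against 68.999, 65.05 and 66.9 FPKM in Col-0 libraries (log2 change 0.47, SE 0.0294, limma adjusted p = 4.77e-07), and PAB8 had 46.9, 47.3 and 46.6 FPKM in mettl16 libraries, against 29.996, 31.4 and 30.4 FPKM in Col-0 libraries (log2 change 0.60, SE 0.0309, limma adjusted p = 1.31e-07). The mettl16 and Col-0 values of PAB4 and PAB8 were far apart compared with the spread among libraries. PAB7 changed by 0.41 at a low level of 1.17 ± 0.0575 FPKM in mettl16 and 0.636 ± 0.0461 FPKM in Col-0 (limma adjusted p = 0.00114) and PAB6 was not called. PAB3 and PAB5, known for expression in flowers and pollen, fell under the filter at 0.197 ± 0.0229 FPKM in mettl16 and 0.0192 ± 0.0333 FPKM in Col-0 for PAB3 and 0.383 ± 0.00657 FPKM in mettl16 and 0.09303 ± 0.0562 FPKM in Col-0 for PAB5, with no overlap between genotypes. The floral markers above rose in the same libraries, and their part in these low levels was not tested.

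Decapping genes had small log2 changes, from -0.17 to 0.32. Of 11 tested genes 5 were called higher and 1 lower, or 45.5% and 9.09%, with a median of 0.09, against 41.1%, 23.4% and 0.08 for all tested genes. After median centring 3 were higher and 2 lower. DCP2, the decapping enzyme, had 9.12, 8.15 and 8.54 FPKM in mettl16 libraries, against 9.75, 9.34 and 9.04 FPKM in Col-0 libraries with a log2 change of -0.11 (interval -0.23 to 0.01). It was not called here (limma adjusted p = 0.0918) but was called lower after median centring (-0.18, adjusted p = 0.0146), after quantile normalization (-0.18, adjusted p = 0.0130) and without mettl16 replicate 1 (-0.15, adjusted p = 0.0447). Its activator DCP1 had 27.04, 26.6 and 24.997 FPKM in mettl16 libraries, against 21.4, 22.7 and 21.04 FPKM in Col-0 libraries (log2 change 0.26, SE 0.0434, limma adjusted p = 4.85e-04). VARICOSE (VCS), the decapping scaffold, changed by 0.10 (limma adjusted p = 0.0364), a call lost after median centring and in 4 of the 6 fits that left out 1 library, and its copy VCR, not called, had a log2 change of 0.05 (interval -0.08 to 0.17). The activators PAT1H1 and PAT1H2 went opposite ways, by 0.21 and -0.17 (limma adjusted p = 0.00135 and 0.0101). LSM1B rose by 0.32 (limma adjusted p = 1.37e-04) and LSM1A, its near copy in the ring that binds deadenylated ends, was not called, at 0.08 (interval -0.03 to 0.19). Of the DHH1-like RNA helicases, RH12 changed by 0.15 (limma adjusted p = 0.00461), a call lost after median centring, and RH6 at 0.05 (interval -0.02 to 0.12) and RH8 at 0.09 (interval -0.02 to 0.20) were not called.

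The 5′-3′ exoribonucleases in the set are the nuclear XRN2 and XRN3, and both were called higher by small amounts. XRN2 had 21.7, 23.1 and 21.97 FPKM in mettl16 libraries, against 20.1, 19.5 and 19.8 FPKM in Col-0 libraries (log2 change 0.16, SE 0.0378, limma adjusted p = 0.00427), and its call was lost after median centring (0.09, adjusted p = 0.0559). XRN3 had 25.5, 26.2 and 26.2 FPKM in mettl16 libraries, against 22.7, 22.97 and 22.6 FPKM in Col-0 libraries (log2 change 0.18, SE 0.0327, limma adjusted p = 8.16e-04). The groups did not overlap for either, as in 69.8% of all tested genes. XRN4, the cytoplasmic enzyme, does not hold the pathway term in the authors' file; it had 18.6, 18.4 and 18.2 FPKM in mettl16 libraries, against 15.9, 16.5 and 16.7 FPKM in Col-0 libraries (log2 change 0.16, limma adjusted p = 0.004002).

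Among 6 nucleotidyltransferase genes, annotated to the enzymes that add short tails to nuclear RNA, 2 were called higher and none lower. That is 33.3% higher, beside 41.1% higher and 23.4% lower of all tested genes. AT2G40520 had 10.7, 10.99 and 11.2 FPKM in mettl16 libraries, against 7.89, 7.71 and 7.504 FPKM in Col-0 libraries (log2 change 0.46, SE 0.0449, limma adjusted p = 1.22e-05). AT5G53770 changed by 0.42 (limma adjusted p = 1.48e-04), and the other 4, not called, had log2 changes between 0.05 and 0.27.

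The 3 largest called rises outside the NAC family were in an organellar RNase and in organellar chaperones. The mitochondrial PNPase gene AT5G14580 had 6.98, 7.44 and 7.83 FPKM in mettl16 libraries, against 1.97, 1.95 and 1.91 FPKM in Col-0 libraries (log2 change 1.51, SE 0.0625, limma adjusted p = 3.15e-08), 3.81 times the Col-0 mean. RIF10, the chloroplast PNPase, had 45.3, 47.02 and 46.4 FPKM in mettl16 libraries, against 25.8, 25.2 and 24.3 FPKM in Col-0 libraries (log2 change 0.86, SE 0.0342, limma adjusted p = 2.61e-08). Neither gene's groups came near overlapping.

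All 9 HSP60 chaperonin genes, which the pathway lists because the bacterial homologue is found with RNA-degrading complexes, were called higher, beside 41.1% of all tested genes. Their log2 changes ran from 0.30 to 1.23 with a median of 0.84. The class summed to 1416, 1475 and 1434 FPKM in mettl16 libraries, against 833, 847 and 831 FPKM in Col-0 libraries. The mitochondrial HSP60 (AT3G23990) had 124, 127 and 123 FPKM in mettl16 libraries, against 53.3, 54.3 and 54.7 FPKM in Col-0 libraries (log2 change 1.19, SE 0.0274, limma adjusted p = 7.69e-10). Its paralogues HSP60-2 and HSP60-3A rose by 1.12 and 0.84 (limma adjusted p = 4.56e-09 and 1.40e-07). Chaperonins of the chloroplast assist folding of Rubisco and other plastid proteins. CPN60A had 457, 473 and 462 FPKM in mettl16 libraries, against 255, 264 and 258 FPKM in Col-0 libraries (log2 change 0.84, SE 0.0254, limma adjusted p = 4.40e-09). Of the beta subunits, Cpn60beta2 was at 263, 273 and 262 FPKM in mettl16 libraries, against 115, 113 and 109.7 FPKM in Col-0 libraries (log2 change 1.23, SE 0.0286, limma adjusted p = 8.12e-10) and the more abundant CPN60B at 452, 477 and 463 FPKM in mettl16 libraries, against 346, 348 and 343 FPKM in Col-0 libraries (log2 change 0.42, SE 0.0258, limma adjusted p = 4.21e-07). Cpn60beta3, Cpn60beta4 and Cpn60alpha2 changed by 0.76, 0.63 and 0.30 (limma adjusted p = 3.42e-07, 3.74e-06 and 0.00138). CPN60B and Cpn60beta2 are close copies, and HSP60-3A and Cpn60beta4 overlap other genes, so their fragments may be shared.

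Of the 3 organellar HSP70 genes, the mitochondrial mtHsc70-1 had 119.98, 128 and 123 FPKM in mettl16 libraries, against 45.3, 47.5 and 45.9 FPKM in Col-0 libraries (log2 change 1.40, SE 0.0332, limma adjusted p = 8.95e-10), and MTHSC70-2 had 62.2, 64.3 and 62.005 FPKM in mettl16 libraries, against 25.5, 25.2 and 24.9 FPKM in Col-0 libraries (log2 change 1.29, SE 0.0304, limma adjusted p = 8.95e-10). The 2 are close copies. The HSP70-family gene AT4G32208 had 11.6, 11.4 and 12.4 FPKM in mettl16 libraries, against 0, 4.78 and 4.801 FPKM in Col-0 libraries. Its change of 1.99 was not called (limma adjusted p = 0.102). The zero in Col-0 replicate 1 can be a failed estimate, and without that library the change was 1.15 and was called (adjusted p = 3.58e-07).

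Enolase and phosphofructokinase are enzymes of glycolysis that the pathway lists for their bacterial homologues. All 3 enolases were called higher, beside 41.1% of all tested genes. LOS2, the cytosolic enolase, had 438, 453 and 441 FPKM in mettl16 libraries, against 283, 290.03 and 281 FPKM in Col-0 libraries (log2 change 0.64, SE 0.0251, limma adjusted p = 2.32e-08). ENO1, the plastid enolase, had 28.3, 28.8 and 27.6 FPKM in mettl16 libraries, against 14.7, 16.3 and 14.2 FPKM in Col-0 libraries (log2 change 0.87, SE 0.0499, limma adjusted p = 2.88e-07). ENOC changed by 0.13 (limma adjusted p = 0.0412) and lost its call after median centring and in 4 of the 6 fits that left out 1 library. Of 7 phosphofructokinases 3 were higher and 3 lower, or 42.9% each, against 41.1% and 23.4% of all tested genes. PFK4, a plastid enzyme, had 13.3, 14.2 and 14.3 FPKM in mettl16 libraries, against 18.9, 18.9 and 19.1 FPKM in Col-0 libraries and fell (log2 change -0.42, SE 0.0408, limma adjusted p = 1.19e-05). PFK1, the most abundant, had 36.2, 35.3 and 36.6 FPKM in mettl16 libraries, against 38.7, 41.6 and 39.3 FPKM in Col-0 libraries (log2 change -0.14, SE 0.0359, limma adjusted p = 0.00657), and PFK3 fell by 0.29 (limma adjusted p = 0.0271), a call lost with no filter and in 4 of the 6 fits that left out 1 library. PFK6, PFK2 and PFK7 were called higher by 0.35, 0.28 and 0.11, but PFK7 lost its call after both scalings, with the replicate block and in 4 of those 6 fits, and PFK2 after quantile normalization. The family had 2 higher and 4 lower calls after median centring and 1 and 4 after quantile normalization.

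**Figure D3:**
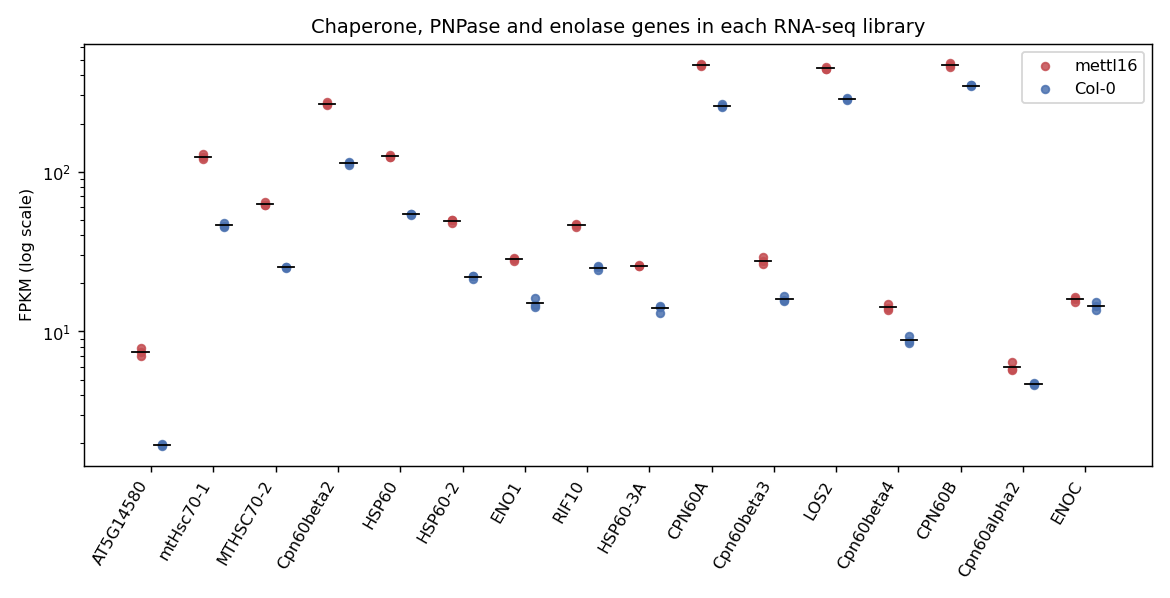
FPKM of HSP60, organellar HSP70, PNPase and enolase genes in each RNA-seq library on a log axis, with mettl16 to the left of Col-0, ordered by log2 change; AT4G32208, with a value of 0, is left out. Points are libraries and black bars are means of 3; the mettl16 points lie above the Col-0 points in each gene drawn, by a log2(FPKM + 1) change of 1.51 for AT5G14580 at the left and 0.13 for ENOC at the right.

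NAC transcription factors, a plant family of developmental and stress regulators, moved in both directions. Of 41 genes 32 were tested, 15 were called higher and 7 lower, or 46.9% and 21.9%, near the 41.1% and 23.4% of all tested genes. Quantile normalization left 9 higher and 8 lower. NAC13 (AT1G32870), a regulator of the response to mitochondrial dysfunction, had the largest called rise of all 191 genes, with 24.7, 25.5 and 25.97 FPKM in mettl16 libraries, against 5.68, 6.94 and 5.85 FPKM in Col-0 libraries (log2 change 1.89, SE 0.0646, limma adjusted p = 9.81e-09). NAC13 overlaps AT1G32880 on the opposite strand at its 3′ end. NAC017, a membrane-bound factor known from the same response, fell, with 17.998, 18.5 and 17.4 FPKM in mettl16 libraries, against 22.03, 22.4 and 21.98 FPKM in Col-0 libraries (log2 change -0.29, SE 0.0372, limma adjusted p = 9.44e-05).

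NAP (AT1G69490), a promoter of leaf senescence, had 4.22, 5.07 and 5.48 FPKM in mettl16 libraries, against 16.6, 16.3 and 14.9 FPKM in Col-0 libraries (log2 change -1.52, SE 0.0799, limma adjusted p = 1.99e-07). It was the largest fall of the 191 genes. NAC016 and NAC3, also known from senescence, fell by 0.42 and 0.30 from levels under 1.5 FPKM (limma adjusted p = 0.00183 and 0.0389). The call of NAC3 was lost without mettl16 replicate 1, mettl16 replicate 3 or Col-0 replicate 2. Not all NAC genes linked to senescence fell. NAC6, NAC046 and ANAC087 were not called, at 0.03, -0.08 and 0.09 (limma adjusted p = 0.838, 0.462 and 0.322). After quantile normalization NAC046 was called lower (-0.26, limma adjusted p = 0.0392). NAC036, known for small leaves when overexpressed, had 19.6, 19.5 and 19.8 FPKM in mettl16 libraries, against 34.2, 34.4 and 30.2 FPKM in Col-0 libraries (log2 change -0.72, SE 0.04997, limma adjusted p = 1.12e-06). LOV1, named for the long vegetative phase of plants that overexpress it, fell by 0.28 (limma adjusted p = 0.00113). NAC2, the most abundant family member, had 27.7 ± 0.887 FPKM in mettl16 and 26.6 ± 0.837 FPKM in Col-0 (SD, n = 3 each) with a log2 change of 0.06 (interval -0.03 to 0.14) and no call.

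The 3 CUP-SHAPED COTYLEDON genes, which mark boundaries between organs in meristems and flowers, were all higher. CUC3 had 4.095, 3.902 and 3.73 FPKM in mettl16 libraries, against 1.42, 1.34 and 1.59 FPKM in Col-0 libraries (log2 change 1.00, SE 0.0726, limma adjusted p = 1.45e-06). CUC2 and CUC1 rose by 0.58 and 0.49 from below 0.5 FPKM in each Col-0 library (limma adjusted p = 1.95e-04 and 0.00136). The NST and VND genes were picked out after their values had been seen. NST1, a regulator of secondary walls in fibres and anthers, had 1.296, 1.48 and 1.16 FPKM in mettl16 libraries, against 0.121, 0.203 and 0.271 FPKM in Col-0 libraries (log2 change 0.95, SE 0.0916, limma adjusted p = 1.14e-05). NAC012, also called NST3, had 0.335, 0.376 and 0.448 FPKM in mettl16 libraries and was listed at 0 in all 3 Col-0 libraries, under the filter. The vessel regulators ANAC026 (VND5), NAC007 (VND4), VND1 and NAC076 (VND2) changed by 0.83, 0.52, 0.35 and 0.27 and were called higher, while VND7, at 0.32, was not (limma adjusted p = 0.0531). The call of NAC076 was lost after median centring, after quantile normalization and in 4 of the 6 fits that left out 1 library, and that of VND1 after quantile normalization. NST1, NAC012 and the 5 vessel regulators were all below 3 FPKM in every library. The 6 floral markers described above were called higher in the same libraries, at 1.61 to 22.4 FPKM on average in mettl16 and 0.212 to 0.453 FPKM in Col-0, and their part in these NAC changes was not tested. In NAC082 Col-0 replicate 3 stood apart from the other libraries. The gene had 25.6, 25.2 and 26.1 FPKM in mettl16 libraries, against 26.1, 26.7 and 15.5 FPKM in Col-0 libraries and was not called.

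**Figure D4:**
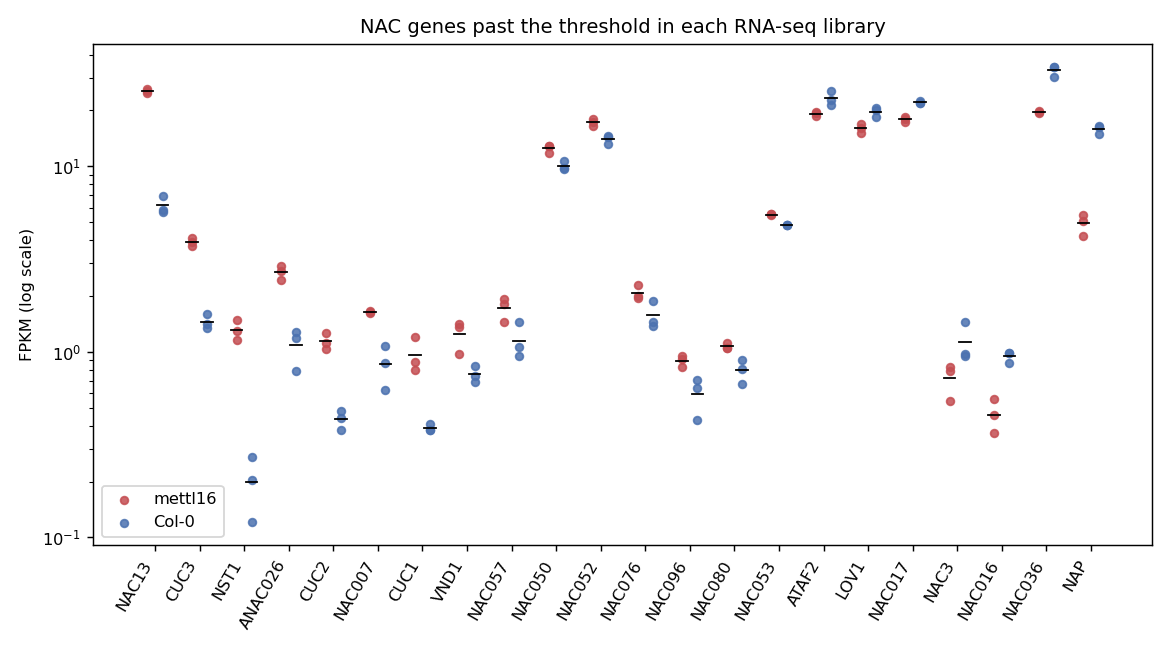
FPKM of the 22 NAC genes called higher or lower, in each RNA-seq library on a log axis, with mettl16 to the left of Col-0, ordered by log2 change. Points are libraries and black bars are means of 3; NAC13 at the left lies near 25 FPKM in mettl16 and 6 FPKM in Col-0, and NAP at the right near 5 and 16 FPKM.

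The counts of the remaining annotations stand beside 41.1% higher and 23.4% lower of all tested genes. DEAH-box helicases were called higher in 4 of 6 genes, or 66.7%. ABO6, a mitochondrial helicase for intron splicing, had 3.69, 3.94 and 3.61 FPKM in mettl16 libraries, against 1.44, 1.35 and 1.47 FPKM in Col-0 libraries (log2 change 0.97, SE 0.0682, limma adjusted p = 1.18e-06), and AT1G48650, the most abundant, had 24.96, 24.5 and 24.5 FPKM in mettl16 libraries, against 14.6, 15.2 and 14.9 FPKM in Col-0 libraries (log2 change 0.69, SE 0.0354, limma adjusted p = 1.34e-07). AT2G01130 was the only one of the 6 called lower, by 0.30 (limma adjusted p = 0.00135). Of 8 CRM-domain genes, which encode splicing factors mostly of organelles, 4 were called higher and none lower, or 3 and 1 after quantile normalization. Their median log2 change was 0.10, near the 0.08 of all tested genes. The largest change was that of AT3G27550, with 6.08, 6.55 and 6.56 FPKM in mettl16 libraries, against 2.81, 2.76 and 2.74 FPKM in Col-0 libraries (log2 change 0.97, SE 0.0583, limma adjusted p = 3.88e-07). Of 5 CID genes, whose proteins bind poly(A)-binding protein, CID9 had 11.2, 10.3 and 9.69 FPKM in mettl16 libraries, against 4.299, 4.64 and 5.04 FPKM in Col-0 libraries (log2 change 1.01, SE 0.0685, limma adjusted p = 8.96e-07), and CID10 and CID11 fell by 0.20 and 0.14 (limma adjusted p = 0.00576 and 0.00595). Of 7 tested RRM proteins 5 were higher and 1 lower, or 2 and 2 after quantile normalization. The most abundant, the plastid ribosomal protein PSRP2, had 207 ± 5.14 FPKM in mettl16 and 189 ± 4.43 FPKM in Col-0 (SD, n = 3 each), and its rise of 0.13 was no longer called after median centring (0.06, limma adjusted p = 0.0758) and turned to -0.06 after quantile normalization.

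WDR55 (AT2G34260), a WD40 protein needed for gamete and embryo development, had 15.1, 14.98 and 15.2 FPKM in mettl16 libraries, against 5.43, 6.11 and 5.55 FPKM in Col-0 libraries (log2 change 1.27, SE 0.0509, limma adjusted p = 2.64e-08). The groups were wide apart. The 2 EXECUTER genes, chloroplast proteins of singlet oxygen signalling, went opposite ways. EX1 had 24.9, 23.5 and 24.3 FPKM in mettl16 libraries, against 34.1, 33.3 and 33.6 FPKM in Col-0 libraries (log2 change -0.46, SE 0.0343, limma adjusted p = 1.81e-06), and EX2 rose by 0.33 (limma adjusted p = 5.55e-05). AT5G19210, a helicase-like gene, fell by 0.36 (limma adjusted p = 0.00158). EX1 and AT5G19210 overlap a neighbouring gene. Of 3 ABCI transporters 1 was called higher, and ABCI20, the most abundant, had 19.6, 20.1 and 31.4 FPKM in mettl16 libraries, against 23.01, 14.4 and 22.3 FPKM in Col-0 libraries, with overlapping groups. EDA3, the most abundant gene of mixed annotation, had 141 ± 9.78 FPKM in mettl16 and 135 ± 4.08 FPKM in Col-0 and was not called. Besides NAC012, a few genes under the filter were listed at 0 throughout 1 genotype. They were PUP3 at 0.0330 to 0.114 FPKM in mettl16 and 0 in Col-0, MPC and NAC071 at 0 in mettl16 and at most 0.109 FPKM in a Col-0 library, and AT1G22080 and NAC077, each above 0 in 1 mettl16 library.

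Further genes of mRNA decay were called in both directions. Of 33 without the pathway term 31 were tested, 11 were called higher and 11 lower, or 35.5% each, against 41.1% and 23.4% of all tested genes. These are genes of nonsense-mediated decay, uridylation, tandem zinc finger, Pumilio and stress-granule proteins, with a median log2 change of -0.0014. Of the 9 LSM genes that hold the term and were left out for Spliceosome, 4 were called higher and 1 lower. TZF3, a tandem zinc finger protein, had 2.98, 2.82 and 2.53 FPKM in mettl16 libraries, against 13.96, 11.7 and 11.8 FPKM in Col-0 libraries (log2 change -1.84, limma adjusted p = 3.41e-08). The uridylyltransferases, which tag deadenylated or small RNA, differed, with HESO1 at 0.56 and URT1 at -0.23 (limma adjusted p = 5.55e-06 and 8.68e-04). RBP47A rose by 0.87 and UBP1A changed by -0.59, both RNA-binding proteins of stress granules (limma adjusted p = 9.78e-08 and 1.14e-05). UPF1, the central helicase of nonsense-mediated decay, had a log2 change of -0.04 and was not called (limma adjusted p = 0.451).

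The m6A comparison asked which marks on these transcripts differ in the mutant. In the authors' deposited table, with its own fold and FDR per peak, 59 of the 191 genes had a peak, or 30.9%, against 23.4% of all genes in the expression table; among tested genes the shares were 33.5% and 29.1%. At FDR under 0.05, 33 of the 60 peaks were lower in mettl16 and 13 higher, or 55% and 21.7%, against 51.6% and 17.6% of all 6437 peaks and 69.2% called in either direction. The median log2 fold was -0.20 for these peaks and -0.23 for all peaks. These shares lie near those of all peaks. With folds centred on the median of all peaks, 24 of the 60 were lower and 22 higher, against 36.4% and 32.7% of all peaks. The fold is read as mettl16 over Col-0 from the order of names in the table, the table gives no value per sample, and it is not given whether the fold corrects for input. 54 of the 60 peaks, 90%, were in 3′ UTRs, against 78.9% of all peaks. A log2 fold of at least 0.5 in size was found in 9 called peaks of the 60, 5 lower and 4 higher. Over the whole table it was found in 769 called peaks of 6437. Coordinates are those of the authors' table, build TAIR10, counted from 1.

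Peaks of chaperone genes were all lower with the fold as deposited. The 8 peaks of HSP60 and organellar HSP70 genes, a grouping made after values had been seen, all lay in 3′ UTRs, had FDR under 0.05 in the authors' deposited table and a median log2 fold of -0.47. Expression of all 8 genes was called higher. In the authors' deposited table the peak of Cpn60beta2 (chromosome 3, 4392110 to 4392801) had a log2 fold of -0.63 (FDR 1.00e-116), and that of CPN60A (chromosome 2, 11929001 to 11929389) had -0.58 (FDR 1.00e-153). The peak of mtHsc70-1 (chromosome 4, 17825080 to 17825557) had -0.57 (FDR 1.26e-53), and that of MTHSC70-2 (chromosome 5, 2978127 to 2978750) had -0.47 (FDR 1.26e-27), in the authors' deposited table. The smallest falls of the 8 were in HSP60-2 and CPN60B, in the authors' deposited table, at -0.13 (FDR 0.0372) and -0.18 (FDR 3.16e-40). Both lay above the median fold of all peaks, so with centred folds 6 of the 8 were lower and 2 higher.

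Peaks of the core decay classes, 20 in number and all in 3′ UTRs, went both ways. Of the 20, 9 were lower and 7 higher, or 45% and 35%, against 51.6% and 17.6% of all peaks. With centred folds 5 of the 20 were lower and 11 higher, against 36.4% and 32.7% of all peaks. In the authors' deposited table the deadenylase CCR4A had a log2 fold of 0.22 (FDR 5.37e-04), HESPERIN 0.35 (FDR 6.31e-05) and AT5G10960 0.47 (FDR 0.00617). The CCR4-NOT subunit AT2G32550 (chromosome 2, 13822143 to 13822839) had the largest called rise of the set, 0.72 (FDR 0.0158) in the authors' deposited table. Its expression was not called, with 1.004, 1.37 and 1.36 FPKM in mettl16 libraries, against 1.07, 1.42 and 1.24 FPKM in Col-0 libraries, and the groups overlapped. AT5G62910, annotated to CNOT4, had the largest called core fall, -0.60 (FDR 6.17e-04) in the authors' deposited table. In the authors' deposited table PAB4 and PAB2 had small rises of 0.14 (FDR 4.07e-05) and 0.15 (FDR 2.75e-09), and the nuclear exonucleases split, with XRN3 at 0.23 (FDR 1.29e-04) and XRN2 at -0.09 (FDR 0.0468). Of 3 exosome peaks in the authors' deposited table, those of RRP45A and the RRP40 gene AT4G32175 were lower, at -0.33 (FDR 0.00447) and -0.29 (FDR 0.04898), and that of RRP6L1 was not called, at 0.10 (FDR 0.188). CSL4, RRP42, RRP41L, RRP43, RRP46, RRP4 and RRP41, the exosome genes with the largest rises in the ring and cap, had no peak in the table. DCP2 had none, and in the authors' deposited table its partners PAT1H1 and LSM1B had lower peaks, at -0.38 (FDR 5.75e-05) and -0.19 (FDR 0.00398).

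Outside the core classes, the 4 largest called rises in the authors' deposited table were those of 4 unrelated genes: CFM3A at 0.64 (FDR 6.31e-29), ABO6 at 0.61 (FDR 0.00126), CID10 at 0.54 (FDR 2.45e-06) and AT3G52155 at 0.41 (FDR 0.00457). In the authors' deposited table the CRM-domain gene AT2G28480 and the NAC gene NAC089 had falls of -0.54 (FDR 0.00501) and -0.49 (FDR 1.66e-05). All 5 called peaks of NAC genes were lower, in LOV1, NAC050 with 2 peaks, NAC082 and NAC089, beside 74.6% of all called peaks. With centred folds 4 of the 5 were lower and 1 higher. NAC13, NAP and CUC3 had no peak in the table. The highest folds in the authors' deposited table were not called: PUP2 at 2.81 (FDR 0.1002), NST1 at 1.51 (FDR 0.516) and AT1G01080 at 1.44 (FDR 0.2301).

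Set side by side, a lower peak went with higher expression in 20 of the 32 genes whose called peaks were all lower and with lower expression in 2. The 8 chaperone genes were among these 20. Over all genes of the table with lower peaks only, 50.6% were higher and 18.6% lower in expression. Of the 13 genes with higher peaks only, 7 were higher and 2 lower in expression, against 31.7% and 36.2% over all such genes. Across the 58 genes with a peak and a tested level, Spearman's rho between the peak fold and the expression change was -0.18 and Pearson's r -0.10. Without the 8 chaperone genes rho was 0.00 and r 0.16 (n = 50), and over all 5681 genes of the table rho was -0.13 and r -0.12. These correlations are across genes, which are not independent replicates, and both measures may draw on the same input libraries. By presence of a peak, 33 of 58 genes with a peak were higher in expression and 7 lower, against 64 and 14 of 115 genes without one.

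**Figure D5:**
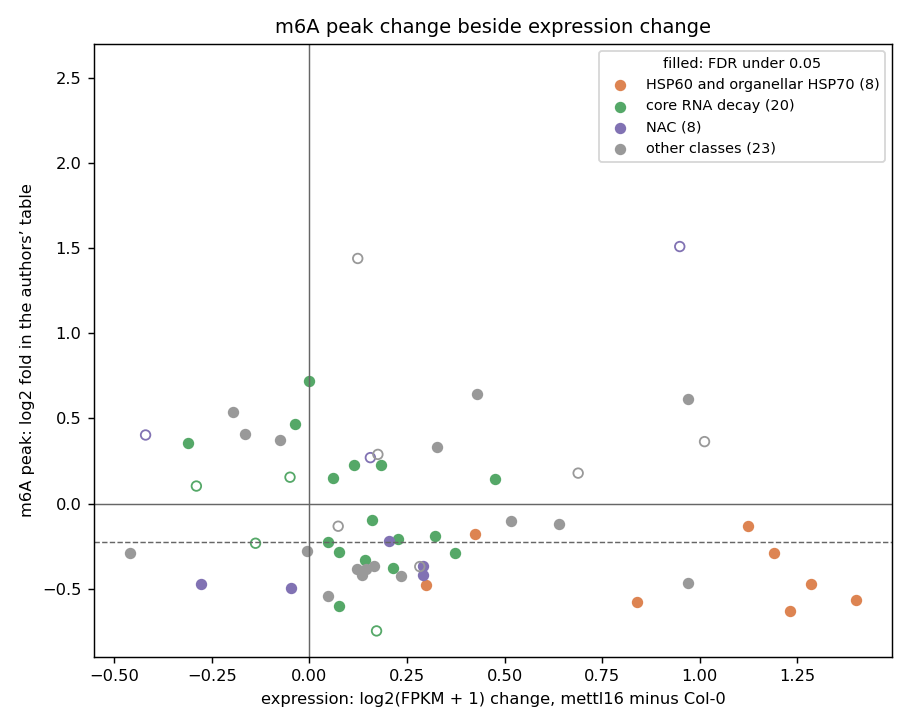
Each point is an m6A peak of a tested gene, with the expression change (log2(FPKM + 1), mettl16 minus Col-0) across and the log2 fold of the peak in the authors' deposited table upward; open points have an FDR of 0.05 or more and the dashed line is the median fold of all peaks, -0.23. The 8 chaperone peaks lie at the lower right, core decay peaks lie on both sides of 0, and the peak of PUP2, whose gene was not tested, is not drawn.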

How the data were processed

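Per the labels' protocols, polyadenylated RNA from the aerial part was cut into pieces of about 100 nt, part was enriched with an m6A antibody, and enriched and input RNA were sequenced. Samples were grouped by the genotype and assay in their titles, with 3 samples in each of 4 groups, described as biological replicates. Nothing says whether plants were pooled, so p-values measure the spread between these samples.

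The authors deposited FPKM per gene for the 6 RNA-seq libraries. Per the file headers, the authors' peak table gives a log2 fold of each peak, a p-value of the difference, a p-value of the peak and a score, the log10 of the FDR, from which the FDR was computed. Tools named in the submitters' processing notes are edgeR, HOMER, StringTie, HISAT2, fastp and cutadapt, without versions or roles, and the build is TAIR10. The making of the fold and the use of strand in counting were not given in the sources used. The depth is unknown, since counts were not recovered from FPKM, so the count tests planned for counts were not used.

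Expression was tested with limma 3.58.1 in R 4.3.3 (trended and robust prior, two-sided) on log2(FPKM + 1), for genes averaging 0.5 FPKM or more, with Benjamini-Hochberg adjustment over 19505 genes and a threshold of 0.05. An exact permutation test of 3 against 3 cannot go below 0.1, so separation of the groups is given as a description. The fit was tested on simulated FPKM with known changes, from which no value is given. Other steps used Python 3.11.15, pandas 2.3.3, NumPy 2.4.6, SciPy 1.17.1 and matplotlib 3.10.9.

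The term Ribosome was read as a whole KEGG term. Read as part of a term it would also remove XRN2 and XRN3, which are annotated to ribosome biogenesis. All 191 genes were found in RefSeq's gene table (TAIR10.1), the source of symbols. Role classes were assigned from the annotation. 28 of the 191 genes overlap another gene, 25 of them on the opposite strand. The set, the classes and the gene lists were chosen with earlier results of these data known. The groups of exosome ring and cap genes, of all CCR4-NOT subunits and of HSP60 with organellar HSP70 were formed after values had been seen. The list of other mRNA decay genes was corrected after values had been seen. 2 patellin genes that share a symbol with PAT1 homologues and were called lower were dropped, a GRAS gene named PAT1 was replaced with the decapping activator AT1G79090, and UPF2 was added by its identifier. Genes named are the 12 largest called rises and 12 largest called falls, the most abundant gene of each class, the 6 largest called rises and falls of a peak, a fixed list of decay genes, genes listed at 0 in 1 genotype, and members of small families. Others were picked after their values were seen: CAF1-family, PAT1H, LSM1, RNA helicase, PFK, CUC, NST, VND and PAB genes, EX2, AT5G53770, AT3G27550, VIP3, HESPERIN, the MPP6-annotated gene, NAC050, NAC082 and genes with uncalled peaks. NAC6, NAC046 and ANAC087 were picked in the same way.

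Alternatives were 2 other pseudocounts, 2 other filters, 3 other scalings, a prior without trend, a replicate block, leaving out each library, and a stricter FDR, repeats counted once, a minimum fold and centring for peaks.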

Additional observations from a re-analysis of the deposited data

How the results depend on the processing

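The 97 higher and 21 lower calls became 81 and 26 after median centring, 78 and 30 after quantile normalization and 107 and 19 after rescaling to TPM, and 99 to 118 of the 118 calls were kept under the settings tried. Reading Ribosome as part of a term, an alternative chosen after seeing the data, gave 95 and 21. The median log2 change of the set, 0.22, was 0.27 with a pseudocount of 0.1, 0.24 with 0.5, 0.20 with no filter, 0.15 after median centring, 0.13 after quantile normalization, 0.26 after rescaling, and 0.20 to 0.22 when 1 library was left out. Lower calls in core decay genes, 4, were 8 after median centring, 9 after quantile normalization, 2 after rescaling and 2 to 5 without 1 library, with 2 without mettl16 replicate 3. Higher NAC calls, 15, were 9 after quantile normalization. With a minimum log2 fold of 0.5, 5 peaks were lower and 4 higher, and with folds centred on the median of all peaks 24 were lower and 22 higher. Exosome calls were 14 to 15 higher and 1 lower, and HSP60 and organellar HSP70 calls 11 to 12 higher and 0 lower, over all settings run for them. Leaving out 1 library gave 87 to 95 higher and 17 to 20 lower calls for the set. It is not stated whether replicate numbers mark a shared batch. Deviations of same-numbered libraries from their group means had r of -0.08, 0.01 and 0.00, and those of differently numbered libraries -0.08 to 0.08. With the replicate block 97 genes were higher and 21 lower, and 113 of the 118 calls were kept.

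Among 87 genes followed through the settings, signs turned only in genes with small changes, given below. Other members turned too, among them NAC020 from 0.14 to -0.019 and ANAC087 from 0.089 to -0.065 after quantile normalization. After median centring and quantile normalization, the log2 change of NAC2 was -0.014 and -0.021, of RH6 -0.020 and -0.025, of EDA3 -0.0048 and -0.032, of PAB2 -0.0096 and -0.048, of AT2G28480 -0.023 and -0.022, of NOT1 -0.039 and -0.030, of VCR -0.024 and -0.026 and of SKI2 -0.017 and -0.016, and that of PSRP2 was -0.055 after quantile normalization. After rescaling, the log2 changes of AT2G32550, CAF1A and CCR4B were 0.019, 0.019 and 0.0058. When 1 library was left out, changes ran from -0.057 to 0.079 in AT2G32550, -0.051 to 0.055 in CAF1A, -0.053 to 0.0022 in CCR4B and -0.105 to 0.0027 in NAC089. The cause of these shifts was not tested. FPKM without depth limits what can be said of genes near the filter.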
